A study of Mus musculus with 56 samples.

Results

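Elastic fibres are built from elastin on a scaffold of fibrillin microfibrils, and 10 genes for their parts and their crosslinking enzymes were followed here among the 53379 genes counted in the series. The 10 genes were chosen by name and role, with earlier results of these data known. They were elastin (Eln), the microfibril genes Fbn1, Mfap4 and Mfap5, the assembly genes Fbln5 and Emilin1, and the lysyl oxidase genes Lox, Loxl1, Loxl2 and Loxl3. All 10 had enough reads to be tested in each region. The study had already named Eln and Lox, from the same libraries, as genes lower at 21 months in each region, so their direction here is not independent evidence.

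Elastin is secreted as a soluble monomer, tropoelastin, which collects on microfibrils and is then joined into an insoluble, stretchable network by lysyl oxidases. These copper enzymes oxidise lysines in elastin and in fibrillar collagens, and the oxidised lysines react to form the crosslinks. Most elastin of an animal is laid down while it grows, and elastic fibres lie in the muscle coat, the connective tissue and the vessel walls of the male ducts.

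RNA was measured by sequencing in 7 regions of the male reproductive tract of C57BL/6 mice aged 3 or 21 months, with 4 libraries for each region and age (14 groups, 56 libraries) and no treatment in either age. The regions were the testis, the efferent ductules that drain it, the initial segment, caput, corpus and cauda of the epididymis, and the vas deferens. According to the study's methods, the regions of each mouse were dissected from both sides after fat and excess connective tissue had been trimmed away, and each mouse gave each region. The labels do not tie a library to a mouse, so regions were compared as if they came from different animals. Libraries held 11125279 to 20561967 reads on genes (median 16384049). Levels are given as counts per 1000000 reads (CPM), scaled by the trimmed mean of M-values (TMM) over all 56 libraries. A level compared between genes is divided by the kilobases of exon of each gene (CPM per kilobase).

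The labelled tissues were checked against sums of CPM over lists of marker genes. The 10 germ cell markers summed to 14154 to 16073 CPM in the testis and to at most 965.8 CPM elsewhere, and the 12 smooth muscle markers to 13775 to 23354 CPM in the vas deferens. The transcript Gm42418 took 49.7% of the reads of the second caput library at 3 months, and 1.27 to 36.03% in the other libraries. The third cauda library at 3 months stood apart from the other 3 of its group. Its 10 leukocyte markers summed to 1004 CPM against 144.7 to 156.2, its 8 fibrillar collagens to 8767 against 1503 to 1729 and its 10 adipocyte markers to 712.5 against 81.25 to 146.2. Values without it are given for each member's change with age in the cauda. The 3-month libraries numbered 3 also had the highest fibrillar collagen sum in 6 of 7 regions and the highest Fbn1 level in 7 of 7, and the labels do not say whether a number marks a mouse. With number 3 left out at both ages, 41 pairs of member and region were called lower in place of 45 with all libraries. In whole tissue, fewer cells that express a gene and less RNA per cell cannot be told apart.

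The members were lower at 21 months or did not pass the test, and none was called higher in any region (the grid of log2 fold changes by gene and region). Calls required at least a 1.5-fold difference together with p under 0.05, before adjustment, in edgeR's quasi-likelihood test of that region's libraries. Of 70 pairs of member and region, 45 were called lower and 0 higher (0 also with no fold threshold and by DESeq2's Wald test), 31 were lower at an adjusted p under 0.05 as well, and in 42 each 21-month library lay below each 3-month library. The fold change was below 0 in 67 pairs. The 3 pairs above 0 were Loxl3 and Fbln5 in the testis and Emilin1 in the efferent ductules, with log2 fold changes of 0.03, 0.02 and 0.06.

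**Figure D1:**
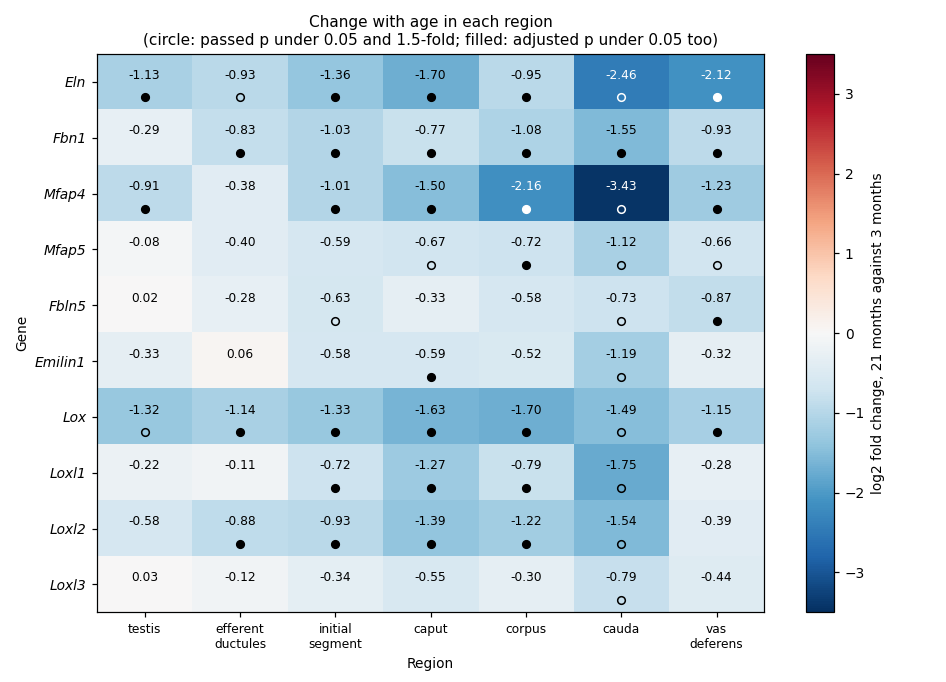
Log2 fold change of each gene (vertical axis) in each region (horizontal axis), 21 months against 3 months, from edgeR fits of 4 libraries per age. A circle marks the 45 called pairs and a filled circle the 31 that also had an adjusted p under 0.05; blue cells are lower at 21 months, and Mfap4 in the cauda (-3.43) is the deepest.

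The number called differed from region to region. In the testis 3 of 10 members were lower, where 1.3% of all genes tested were called lower. The efferent ductules had 4 of 10 (6.16% of all genes) and the vas deferens 6 (5.43%). In the epididymis, the initial segment had 7 members lower (5.45%), the caput 8 (8.48%), the corpus another 7 (3.36%) and the cauda all 10 (4.76%). Of all genes tested, 1.42%, 6.68%, 6.01%, 4.75%, 3.48%, 3.54% and 12.4% were called higher from the testis to the vas deferens. With an adjusted p under 0.05 added, the counts of lower members in that order were 2, 3, 6, 7, 7, 1 and 5, beside 0.0799%, 1.89%, 2.21%, 3.83%, 0.92%, 0.0583% and 3.22% of all genes. Each 21-month library lay below each 3-month library for 3, 4, 7, 6, 7, 10 and 5 members, beside 3.17%, 12%, 14.6%, 6.93%, 4.24%, 4.94% and 8.89% of all genes. The members' median log2 fold change was -0.31 for the testis, -0.39 for the efferent ductules, -0.77 for the vas deferens and -0.82, -1.02, -0.87 and -1.51 for the epididymis from initial segment to cauda, while that of all genes tested lay between -0.04 and 0.02. The cauda median was -0.96 without the third 3-month library, less deep than that of the caput. Without the third 3-month library, 8 members were lower in the cauda (3.07% of all genes), 3 of them at an adjusted p under 0.05, and Fbln5 and Loxl3 were no longer called (1.43-fold and 1.44-fold). The cauda folds of Loxl1, Emilin1 and Mfap5 were 3.36, 2.28 and 2.18 with that library and 2.65, 1.83 and 1.82 without it.

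Eln (ENSMUSG00000029675; chr5:134702593-134747323, minus strand, GRCm38), the gene for the elastic protein itself, was called lower in all 7 regions, by 1.91-fold in the efferent ductules to 5.49-fold in the cauda. In the vas deferens the 3-month libraries held 128, 125, 141 and 156 CPM and the 21-month libraries 38.7, 54.5, 20.1 and 18.0. The ages were far apart there, and the 21-month libraries differed among themselves more than the 3-month ones. The fold was 4.34, with an adjusted p of 0.00155. In the efferent ductules the 3-month libraries held 122, 115, 106 and 102 CPM, and the 21-month libraries 33.8, 73.0, 82.7 and 34.7. These 21-month libraries fell into a lower and a higher pair, both below the 3-month range, and the adjusted p was 0.0543. The lower pair had the most Gm42418 (22.2 and 18.5% of reads) and the fewest reads (11442133 and 11125279) of the region, against 4.93 and 14.9% in the higher pair and 1.27 to 3.29% at 3 months. Leaving Gm42418 out of the counts changed no call of a member in any region, which does not test library quality or read number.

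Eln was lower in each of the 4 epididymal regions, and its 21-month means there lay within 13.7 to 19.2 CPM. The initial segment went from 43.7, 37.1, 82.8 and 53.0 CPM to 21.0, 18.8, 19.6 and 17.5 (2.57-fold, adjusted p = 0.00127). The caput went from 49.7, 26.4, 57.4 and 38.0 to 13.5, 12.2, 12.6 and 16.4 (3.25-fold, adjusted p = 0.000357). The 21-month libraries of both regions were close together while those at 3 months were spread. The corpus went from 29.1, 30.8, 40.6 and 19.6 CPM to 16.7, 13.8, 17.9 and 13.8 (1.94-fold, adjusted p = 0.00460). The cauda went from 45.4, 51.6, 153 and 56.4 to 16.0, 6.30, 16.1 and 18.5 CPM (5.49-fold, adjusted p = 0.0808), and without the third 3-month library the fold was 3.49, with an adjusted p of 0.0365. Even in the testis, where it was lowest, Eln went from 3.89, 4.73, 5.40 and 6.41 CPM to 2.51, 2.53, 2.45 and 1.82 (2.19-fold, adjusted p = 0.00168).

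**Figure D2:**
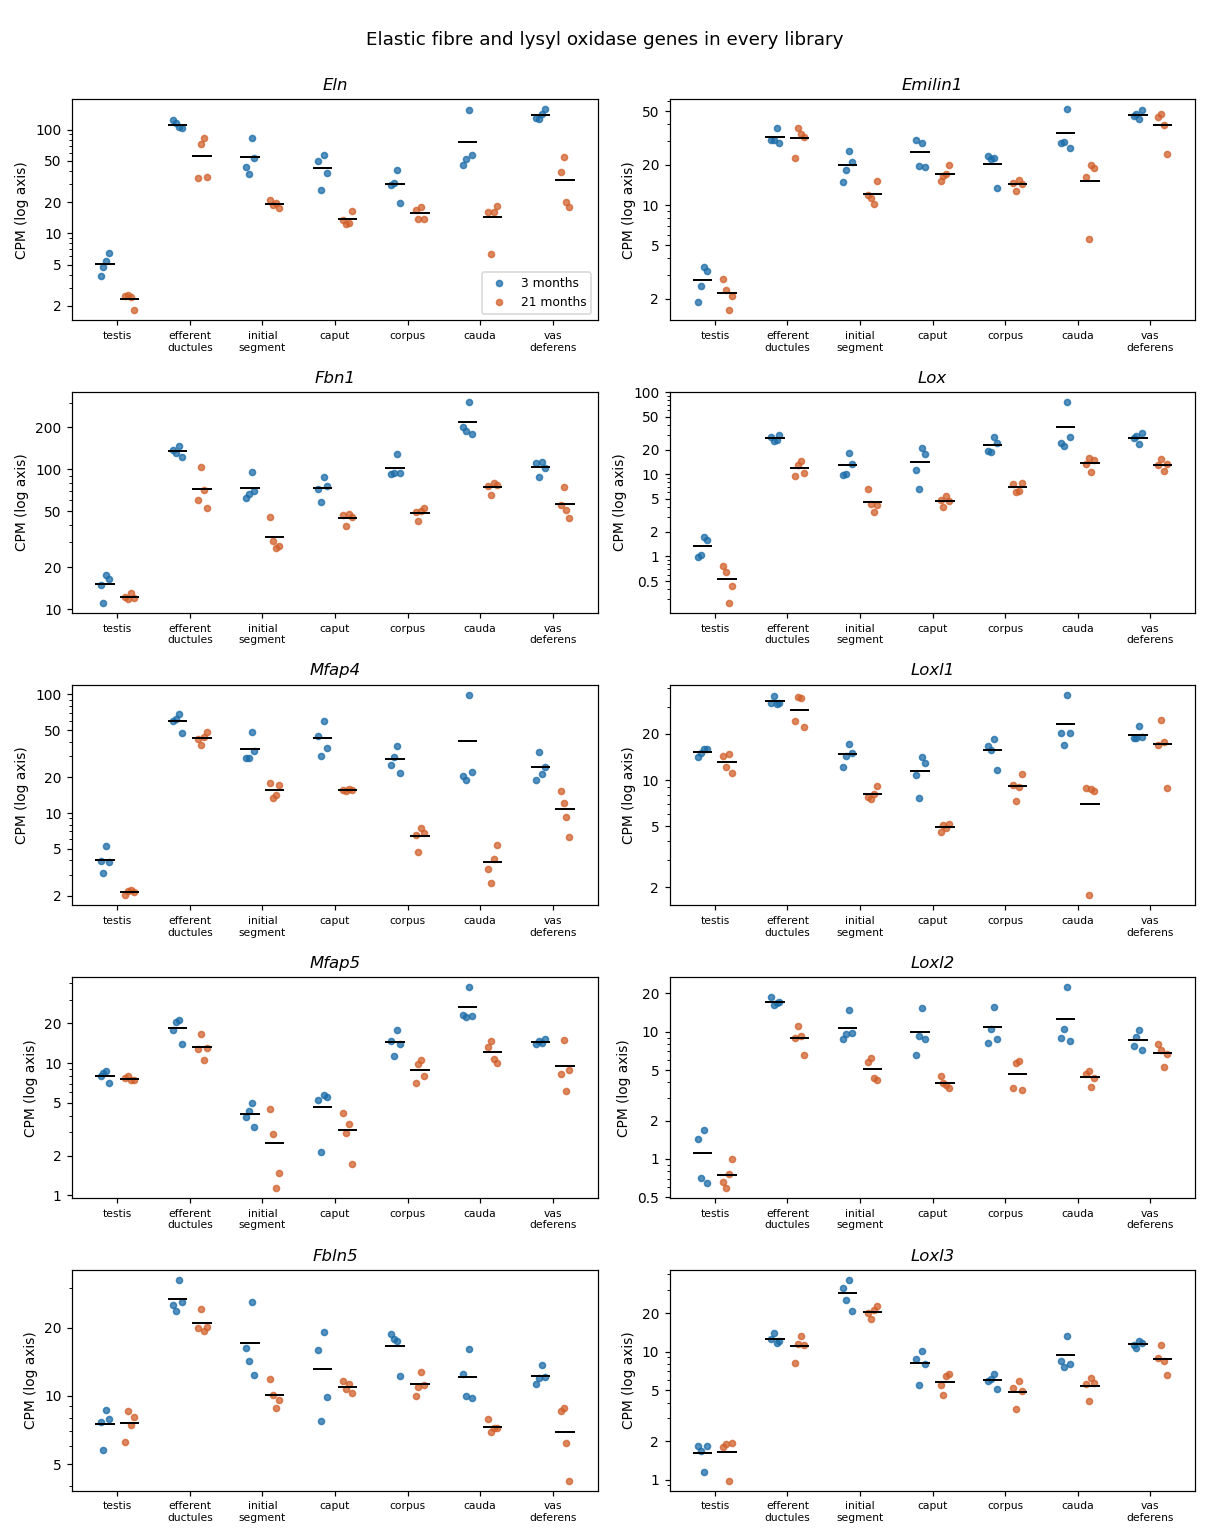
CPM on a log axis (vertical) of the 10 genes in each region (horizontal); each point is 1 library, blue at 3 months and orange at 21 months, and the black line is the mean of 4 libraries. Eln and Lox have every orange point below every blue point in all 7 regions, and the third 3-month cauda library is the high blue point of that region.

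Fbn1 (ENSMUSG00000027204; chr2:125300594-125507993, minus strand), which encodes fibrillin-1, the main protein of microfibrils, was called lower in 6 regions, all 6 at an adjusted p under 0.05. In the cauda its 3-month libraries held 201, 187, 304 and 180 CPM and its 21-month libraries 75.9, 65.1, 80.2 and 77.4. No library of one age came near the other age, and the fold was 2.94 (adjusted p = 0.0282), or 2.47 without the third 3-month library (adjusted p = 0.00403). In the corpus 93.2, 93.7, 130 and 94.8 CPM stood against 49.8, 42.4, 50.5 and 53.2 (2.11-fold, adjusted p = 4.67e-05). The folds in the efferent ductules, initial segment, caput and vas deferens were 1.77, 2.04, 1.71 and 1.90. With library size only in place of TMM, the calls of Fbn1, Emilin1 and Mfap5 in the caput were lost (log2 fold changes of -0.58, -0.40 and -0.52). In the testis the means were 15.02 ± 2.84 and 12.2 ± 0.513 CPM (SD, n = 4), and the difference did not pass the fold threshold.

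Mfap4 (ENSMUSG00000042436; chr11:61485431-61488900, plus strand), whose product binds fibrillin-1 and tropoelastin, was called lower in 6 regions, and its change covered the widest range of the 10 genes, from 1.304-fold to 10.8-fold. In the corpus it went from 25.2, 29.4, 36.7 and 21.6 CPM to 6.57, 4.67, 7.49 and 6.82 (4.45-fold, adjusted p = 3.33e-06). In the cauda it went from 20.6, 19.1, 99.3 and 22.2 CPM to 3.34, 2.57, 4.11 and 5.42. The third library there held 4.82 times the mean of the other 3, and without it the fold fell from 10.8 to 5.21, with the adjusted p moving from 0.0643 to 0.00403. In the caput the 21-month libraries lay within 15.3 to 16.0 CPM, below 30.1 to 59.4 at 3 months (2.83-fold). In the efferent ductules the groups overlapped, at 59.3 ± 8.73 and 42.9 ± 4.54 CPM (SD, n = 4), and Mfap4 was not called. Its exons overlap those of Mapk7 on the other strand, and Mapk7 was called in no region.

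Mfap5 (ENSMUSG00000030116; chr6:122505845-122529290, plus strand), another microfibril protein, was called lower in the caput, corpus, cauda and vas deferens, of which the corpus alone had an adjusted p under 0.05 (14.5 ± 2.73 to 8.86 ± 1.65 CPM, SD, n = 4, 1.65-fold, adjusted p = 0.0336). The initial segment held 3.93, 4.37, 4.99 and 3.29 CPM at 3 months and 4.46, 2.89, 1.14 and 1.48 at 21 months, and the 2 ages overlapped. In the vas deferens the second 21-month library, at 14.8 CPM, lay within the 3-month range of 13.9 to 15.3. The call in the caput was lost without the third or the fourth 3-month library or the second or the fourth 21-month library (log2 fold changes of -0.66 to -0.47), and that in the vas deferens without the third 21-month library (-0.48). The initial segment passed without its first 21-month library (-1.01).

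Fbln5 (ENSMUSG00000021186; chr12:101746565-101819055, minus strand), which encodes fibulin-5, a protein that brings tropoelastin to microfibrils and to Loxl1, was called lower in the initial segment, cauda and vas deferens. In the vas deferens it went from 11.3, 12.01, 13.7 and 12.1 CPM to 8.54, 8.88, 6.19 and 4.22 (1.83-fold, adjusted p = 0.0149). The call in the initial segment was lost without the third library of either age (log2 fold changes of -0.34 and -0.57 in place of -0.63). It was also lost with the replicate number as a block. In the corpus the 1.49-fold difference had an adjusted p of 0.0479 and missed the fold threshold, which it passed without the fourth 3-month or the third 21-month library (-0.68 and -0.67). In the testis the means were nearly equal, at 7.48 ± 1.22 and 7.60 ± 0.992 CPM (SD, n = 4).

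Emilin1 (ENSMUSG00000029163; chr5:30913402-30921277, plus strand), whose product lies between elastin and microfibrils and binds pro-TGF-β, was called lower in the caput and cauda only. The caput held 30.8, 19.7, 29.2 and 19.4 CPM at 3 months and 15.2, 16.4, 17.2 and 19.9 at 21 months, and the ranges overlapped (1.501-fold, adjusted p = 0.0323). This call sat at the fold threshold and was lost without the first or the third 3-month library or without any 21-month library but the fourth (log2 fold changes of -0.58 to -0.50). It was also lost with the replicate number as a block. Conversely, Emilin1 passed in the initial segment without the first or second 3-month or the fourth 21-month library (-0.68 to -0.63), and in the corpus without the fourth 3-month library (-0.66). In the efferent ductules the means were 32.0 ± 3.77 and 31.5 ± 6.29 CPM, and in the vas deferens, where it was highest, 47.1 ± 3.08 and 39.4 ± 10.6 CPM (SD, n = 4).

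Promoter sequence was at hand for Fbn1, Fbln5 and Emilin1, which share a place in the fibre and were called in 6, 3 and 2 regions. The 250 bases before the RefSeq start site are shown (GRCm38.p6), read in the direction of the gene. For Fbn1 and Emilin1 that start lies inside the gene span given above, so their windows are sequence within the annotated gene. Capitals mark GC boxes, GGGCGG or its reverse complement, the letters bound by Sp1.
Fbn1, chr2:125506439-125506688: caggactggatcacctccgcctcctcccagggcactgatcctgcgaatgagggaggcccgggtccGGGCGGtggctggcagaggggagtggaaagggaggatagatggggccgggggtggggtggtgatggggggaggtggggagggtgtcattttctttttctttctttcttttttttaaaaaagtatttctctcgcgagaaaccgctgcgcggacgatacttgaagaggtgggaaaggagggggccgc
Fbln5, chr12:101819120-101819369: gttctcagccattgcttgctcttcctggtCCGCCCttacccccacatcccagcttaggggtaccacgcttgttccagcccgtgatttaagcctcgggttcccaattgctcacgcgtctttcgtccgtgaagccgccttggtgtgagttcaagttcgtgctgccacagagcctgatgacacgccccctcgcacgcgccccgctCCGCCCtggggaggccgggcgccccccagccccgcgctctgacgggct
Emilin1, chr5:30913536-30913785: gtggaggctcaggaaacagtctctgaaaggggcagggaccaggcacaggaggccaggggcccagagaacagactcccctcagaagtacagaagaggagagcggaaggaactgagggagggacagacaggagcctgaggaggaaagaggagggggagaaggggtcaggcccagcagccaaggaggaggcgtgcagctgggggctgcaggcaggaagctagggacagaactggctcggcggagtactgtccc
The Fbn1 window holds 1 GC box, 185 bases before the start, the Fbln5 window 2, at 221 and 48 bases, and the Emilin1 window 0. RefSeq gives a second Fbln5 start, whose window holds 0 and is not shown. A GC box is present on either strand in 32.7% of 32851 mouse promoter windows of this length. None of these 4 windows holds TATAAA (12.4% of windows), the AP-1 letters TGANTCA (6.75%) or the TEAD letters GGAATG (12.6%). These are matches of letters and were not tested for binding.

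Lox (ENSMUSG00000024529), the founding lysyl oxidase, was called lower in all 7 regions within a narrow range of 2.21-fold to 3.26-fold. In the corpus it went from 19.1, 18.4, 28.03 and 24.3 CPM to 7.70, 6.02, 6.31 and 7.74 (3.26-fold, adjusted p = 9.34e-06). In the caput it went from 11.1, 6.69, 20.9 and 17.9 to 4.89, 4.04, 5.37 and 4.72 CPM (3.10-fold, adjusted p = 0.00337). The 21-month values of both regions were close together and below each 3-month value. The initial segment went from 9.78, 10.2, 18.3 and 13.2 CPM to 6.57, 4.30, 3.48 and 4.19 (2.52-fold, adjusted p = 0.00323). The efferent ductules, at 27.4 ± 2.15 and 11.8 ± 2.27 CPM, and the vas deferens, at 27.999 ± 3.30 and 13.1 ± 1.79 CPM (SD, n = 4), had folds of 2.21 and 2.22. In the cauda the values were 24.1, 22.0, 75.7 and 28.4 CPM against 13.4, 15.6, 10.7 and 15.02, so that the fold of 2.80 became 1.77 without the third 3-month library (adjusted p = 0.188 and 0.0788). In the testis Lox had only 5 to 14 reads in a 21-month library and 17 to 32 in a 3-month library, and its adjusted p was 0.0756.

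Loxl1 (ENSMUSG00000032334; chr9:58287738-58313186, minus strand), the family member that acts on elastin through fibulin-5, was called lower in the 4 epididymal regions and in none of the other 3. The caput went from 10.9, 7.63, 14.2 and 13.0 CPM to 4.59, 5.13, 4.85 and 5.16 (2.41-fold, adjusted p = 0.00121), and the folds in the initial segment and corpus were 1.64 and 1.73. In the cauda the second 21-month library, at 1.77 CPM, lay far under the other 3 at 8.55 to 8.89, and all were below the 3-month range of 16.9 to 36.01. That library was also the lowest of its group for Eln (6.30 CPM) and Emilin1 (5.57 CPM), but the highest for Lox, Loxl2 and Mfap5. Its epithelium markers summed to 1123 CPM against 1708 to 1737, and its smooth muscle markers to 3456 against 4429 to 4930. In the efferent ductules Loxl1 was 32.6 ± 1.86 and 28.8 ± 6.46 CPM, in the vas deferens 19.8 ± 1.79 and 17.1 ± 6.45 CPM, and in the testis 15.3 ± 0.901 and 13.1 ± 1.74 CPM (SD, n = 4), with folds of 1.08, 1.21 and 1.16.

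Loxl2 (ENSMUSG00000034205; chr14:69609068-69695834, plus strand), which crosslinks basement membrane and fibrillar collagens, was called lower in 5 regions, from 1.84-fold in the efferent ductules to 2.91-fold in the cauda (2.07-fold without the third 3-month library). In the caput it went from 6.54, 9.23, 15.2 and 8.74 CPM to 4.46, 3.98, 3.80 and 3.64 (2.62-fold, adjusted p = 0.00596). Neither the vas deferens, at 8.59 ± 1.43 and 6.80 ± 1.16 CPM, nor the testis, at 1.12 ± 0.522 and 0.750 ± 0.176 CPM (SD, n = 4), was called, although the testis passed without the second or the fourth 3-month library (log2 fold changes of -0.75 and -0.76). Loxl3 (ENSMUSG00000000693; chr6:83034173-83052562, plus strand), the least changed lysyl oxidase, was called in the cauda alone (9.32 ± 2.61 to 5.41 ± 0.924 CPM, SD, n = 4, adjusted p = 0.282), a call lost without the third library (1.44-fold). In the caput Loxl3 passed without the second 3-month or the third or the fourth 21-month library (log2 fold changes of -0.63, -0.60 and -0.62). Exons of Loxl3 overlap those of Htra2 on the other strand. Htra2 was called in no region, and the strand setting of the counting is not given in the sources used here.

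Whether the size of the age effect depended on the region was tested for each gene in the fit of all 56 libraries. It did at an adjusted p under 0.05 for 4 of 10 members, beside 20.2% of all genes. They were Mfap4 (adjusted p = 6.11e-05), Loxl1 (0.00233), Fbn1 (0.00687) and Eln (0.0468). For Lox, whose folds ran from 2.21 to 3.26, the adjusted p was 0.838, and for Emilin1, Loxl2, Fbln5, Mfap5 and Loxl3 it was 0.110, 0.117, 0.165, 0.327 and 0.364. With the replicate number as a block, Loxl2 (0.0314) and Fbln5 (0.04999) passed too, making 6 of 10, beside 18.3% of all genes in that fit. Without both cauda libraries that stand apart, the third at 3 months and the second at 21 months, the value was 1.69e-05 for Mfap4, 0.000752 for Loxl1, 0.0385 for Fbn1 and 0.0742 for Eln, so Eln no longer passed. Eln also missed with library size only in place of TMM (0.165). When the libraries with one replicate number were left out of every group in turn, Mfap4 passed in each of the 4 fits (largest adjusted p = 0.00254). Loxl1 and Fbn1 passed in 3 of 4 and had adjusted p-values of 0.0924 and 0.0756 without number 3, and Eln passed in 0 of 4 (0.0679 to 0.354).

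The regions themselves differed in each of the 10 genes at both ages (edgeR's quasi-likelihood F-test, adjusted p under 0.05, as for 91.2% of all genes at 3 months and 91.3% at 21 months), and the order of the regions depended on the gene (the grid of mean levels by region). At 3 months Eln was highest in the vas deferens (138 ± 14.1 CPM) and the efferent ductules (111 ± 8.93 CPM), which were not called apart, and lowest in the testis (5.11 ± 1.06 CPM), 26.9-fold under the vas deferens. Fbn1 was highest in the cauda (218 ± 57.9 CPM). Lox was at 37.6 ± 25.6 CPM there, but the other 3 libraries of that group averaged 24.9 CPM, below the vas deferens and the efferent ductules, so that the rank of Lox rested on the third library. Loxl1, Loxl2, Fbln5 and Mfap4 were highest in the efferent ductules, Emilin1 in the vas deferens (47.1 ± 3.08 CPM) and Mfap5 in the cauda (26.4 ± 7.35 CPM; SD, n = 4 throughout). Of these, only Fbln5 and Emilin1 were called apart from the region next in order. Loxl3 stood alone with its highest level in the initial segment, where libraries held 31.6, 25.2, 36.3 and 20.8 CPM, against 11.7 to 13.9 in the efferent ductules next in order, and the difference was called at both ages. At 3 months Loxl1 had the smallest span, 2.85-fold from the efferent ductules to the caput. Its testis level of 15.3 CPM was then not called apart from those of the corpus or initial segment beside it in order. At 21 months the span of Loxl1 was 5.83-fold, and that of Fbln5 was smaller (3.00-fold).

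**Figure D3:**
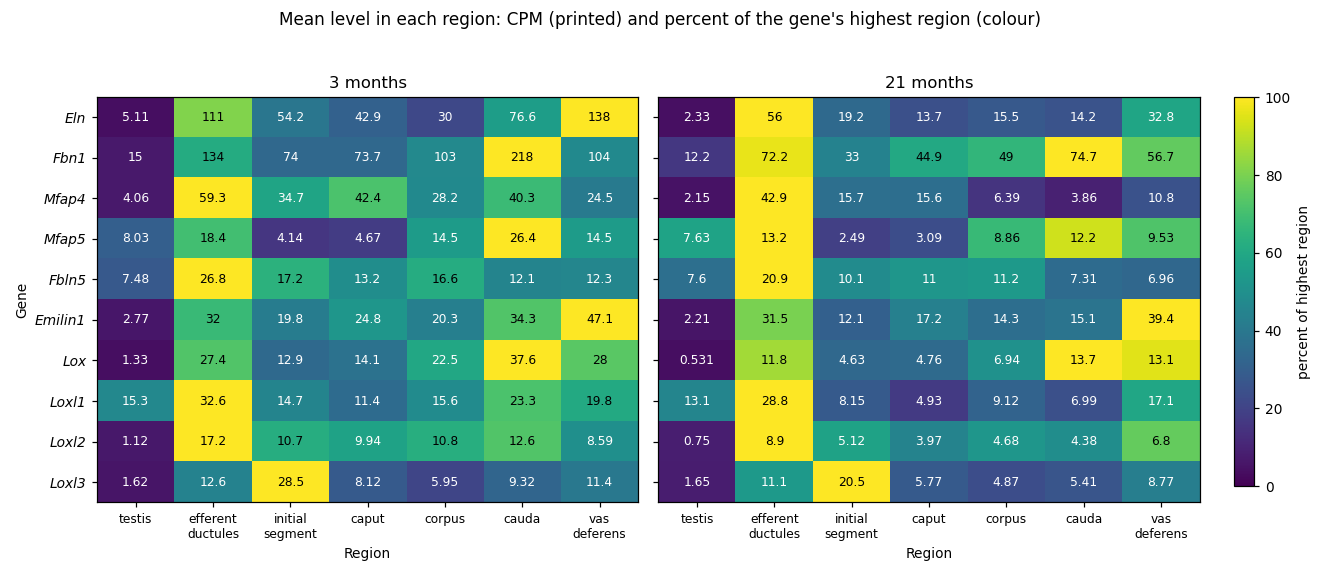
Mean CPM of 4 libraries (printed) for each gene (vertical axis) and region (horizontal axis) at 3 months (left) and 21 months (right); colour gives the percent of that gene's highest region at that age. Loxl3 is brightest in the initial segment at both ages, and the brightest cell of Eln is the vas deferens at 3 months and the efferent ductules at 21 months.

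From one region to the next along the tract, the members changed most at both ends of the efferent ductules. From the testis to the efferent ductules all 10 rose at both ages (adjusted p under 0.05 and 1.5-fold; 71.2% of all genes were called in either direction at 3 months and 70.7% at 21 months), for Eln from 3.89 to 6.41 CPM up to 102 to 122 CPM at 3 months. From the efferent ductules to the initial segment 7 fell, Loxl3 rose and Loxl2 and Mfap4 were not called at 3 months (36.2% of all genes), while 9 fell and Loxl3 rose at 21 months (39.3%). Without the third 3-month cauda library in the fit, or with the replicate number as a block, 9 fell at 3 months too (37.1% and 35.7% of all genes). From the initial segment to the caput Loxl3 alone was called at 3 months (21.2%), lower in the caput, with Loxl1 beside it at 21 months (24.5%). From the caput to the corpus Mfap5 rose at both ages, from 4.67 ± 1.70 to 14.5 ± 2.73 CPM at 3 months (SD, n = 4; 26.3% of all genes), and at 21 months Loxl1 rose and Mfap4 fell (26.7%). Without the third cauda library in the fit, Eln and Mfap4 fell here at 3 months as well (27.6%).

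The later steps are given for each age, and the difference between ages was not tested. From the corpus to the cauda Eln, Loxl3, Fbn1, Emilin1 and Mfap5 were higher in the cauda at 3 months (18.3% of all genes), but without the third cauda library Fbn1 and Eln were higher and Fbln5 lower (15.8%). With the replicate number as a block, Loxl3 was no longer called at this step (17.7% of all genes). At 21 months Lox was higher and Fbln5 and Mfap4 lower in the cauda (21%). From the cauda to the vas deferens Eln and Emilin1 rose and Fbn1 and Mfap5 fell at 3 months (28.9%), and without the third library Eln, Emilin1 and Loxl3 rose and Fbn1 fell (29.3%). At 21 months Eln, Emilin1, Mfap4, Loxl1, Loxl2 and Loxl3 rose there and none fell (29.4%). Mfap4 ran from 42.9 ± 4.54 CPM in the efferent ductules through 15.7 ± 2.14 in the initial segment to 3.86 ± 1.21 in the cauda at 21 months, then 10.8 ± 3.91 in the vas deferens (SD, n = 4).

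The make-up of the lysyl oxidase family, as each gene's percent of the summed CPM per kilobase of exon of Lox, Loxl1, Loxl2, Loxl3 and Loxl4, is given as a description. Exon length is the union of annotated exons, which can exceed that of the transcript. In the testis Loxl1 made 81.7 ± 1.78% at 3 months and 83.9 ± 4.59% at 21 months. In the initial segment Loxl3 was the largest, at 39.4 ± 6.05% and 49.3 ± 3.26%. The share of Lox at 3 and 21 months was 24.8 ± 1.93% and 15.1 ± 0.803% in the efferent ductules, 35.3 ± 5.18% and 22.6 ± 2.23% in the corpus and 33.3 ± 4.15% and 19.7 ± 8.52% in the vas deferens. In the cauda it was 37.3 ± 6.38% and 40.0 ± 11.3% (SD, n = 4 throughout). The share of Loxl4 in the vas deferens went from 8.33 to 10.3% at 3 months to 5.96 to 39.9% at 21 months, so the 21-month libraries ranged from under to far over the younger ones. Loxl4 was called higher there, from 7.18 to 19.9 CPM (adjusted p = 0.137).

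**Figure D4:**
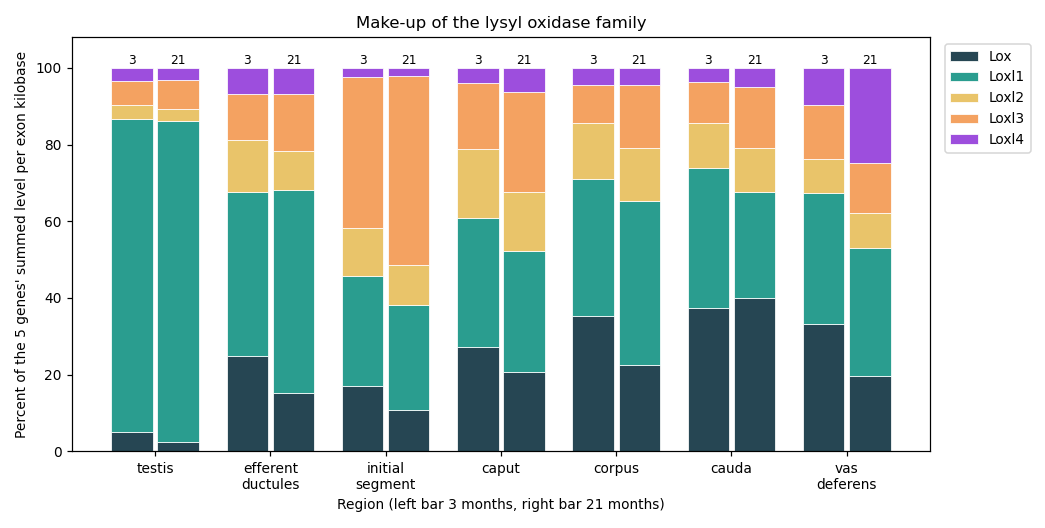
Stacked bars of the mean percent (vertical axis, from 0) that each of 5 lysyl oxidase genes makes of their summed level per kilobase of exon, by region (horizontal axis); the left bar of a pair is 3 months and the right bar 21 months, mean of 4 libraries. Loxl1 fills 81.7% of the testis bar at 3 months, and Loxl3 is the largest part in the initial segment.

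The amount of elastin transcript per fibrillin-1 transcript, again per kilobase of exon, was largest in the vas deferens at 3 months, at 2.004 (1.74 to 2.28 over 4 libraries), and was 0.830 (0.584 to 1.09) at 21 months. It went from 0.858 (0.675 to 1.03) to 0.457 (0.395 to 0.539) in the caput and from 0.518 (0.390 to 0.639) to 0.285 (0.226 to 0.321) in the testis, without overlap. In the corpus it was 0.434 and 0.477, in the efferent ductules 1.25 and 1.15, and in the initial segment 1.07 and 0.902, with overlapping libraries. The cauda libraries overlapped as well, at 0.494 (0.338 to 0.755) and 0.280 (0.145 to 0.357).

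Fibrillar collagens, the other substrates of lysyl oxidases, were lower alongside the members (the plot of list medians by region). Of 55 tested pairs of collagen and region, 40 were called lower and 2 higher. Of all genes tested, 1.3 to 8.48% were called lower and 1.42 to 12.4% higher in a region, which applies to each list below. Col1a1 and Col3a1, the chains of collagens I and III, were lower in all 7 regions, in the vas deferens from 423 to 139 CPM and from 663 to 205 CPM (adjusted p = 0.000976 and 0.000176). The 2 higher calls were Col11a1 in the testis, from 1.75 to 3.21 CPM, and Col2a1 in the corpus, from 0.263 to 0.759 CPM. In the cauda 6 of 8 collagens were lower with and without the third library. The other fibrillin and microfibril genes were lower in 28 of 98 pairs and higher in 2, led by the proteoglycan Vcan, which binds fibrillin-1, in 6 regions and by Fbn2 in 5. The other fibulin and emilin genes were lower in 10 of 70 pairs and higher in 2. Fbln1 was lower in 4 regions, whereas Efemp2, which encodes fibulin-4, the partner of Lox, rose in the efferent ductules from 18.3 to 28.2 CPM (adjusted p = 0.0328).

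Among genes of crosslinking and copper supply, 16 of 76 pairs were lower and 3 higher. Postn, which encodes a protein that helps to activate lysyl oxidases, was lower in 5 regions (4 without the third 3-month cauda library) and Pcolce, an enhancer of procollagen processing, in 4. Fn1, the gene for fibronectin, was lower in the caput, corpus and cauda but rose in the initial segment from 50.7 to 129 CPM (adjusted p = 0.000330). Elastin-cutting proteases and their inhibitors went both ways, with 10 of 82 pairs lower and 13 higher. Ctss, the cathepsin S of macrophages, rose in the efferent ductules from 23.5 to 51.9 CPM, in the initial segment from 54.4 to 77.8 CPM and in the vas deferens from 22.1 to 40.2 CPM, and Mmp12, macrophage elastase, rose in the efferent ductules from 1.44 to 13.7 CPM and in the corpus from 0.0870 to 3.19 CPM (adjusted p = 0.0275 and 0.00698). Mmp12 was also called higher in the testis and initial segment, at under 1 CPM. In the cauda the direction of both rested on the third 3-month library, which held 262 CPM of Mmp12 and 1439 CPM of Ctss against at most 0.635 and 42.9 CPM in the other 3. Both were called lower with it and higher without it. Of the whole list 6 of 12 genes were lower and 1 higher there, or 1 lower and 3 higher without that library. TGF-β ligands, receptors and targets were lower in 7 of 77 pairs and higher in 4, with Tgfb2 lower in the caput and corpus. These counts lie close to the shares of all genes called in a region, 1.3 to 8.48% lower and 1.42 to 12.4% higher.

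**Figure D5:**
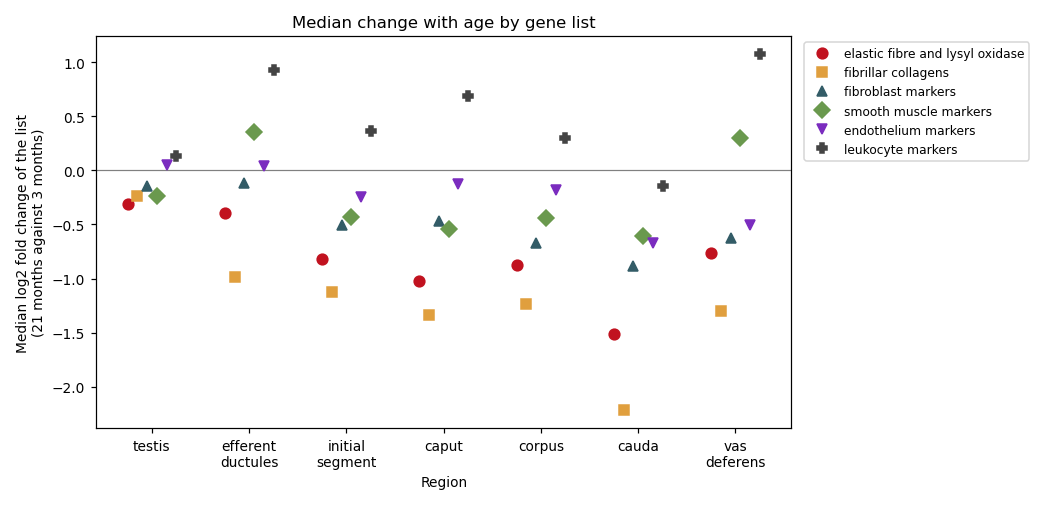
Median log2 fold change, 21 months against 3 months (vertical axis), of 6 gene lists in each region (horizontal axis); each mark is 1 of these lists, with 7 to 12 tested genes. The elastic fibre and fibrillar collagen medians are below 0 in all 7 regions, whereas the smooth muscle median is above 0 in the efferent ductules and vas deferens and the leukocyte median is below 0 in the cauda alone (-0.14, or 0.37 without the third 3-month library).

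Markers of the cells that could carry these transcripts moved with age as well, and their part in the result was not tested. Shares of all genes called in a region were 1.3 to 8.48% lower and 1.42 to 12.4% higher. Fibroblast markers were called lower in 27 of 70 pairs and higher in 1 (Thy1 in the vas deferens, a gene of T cells too), with medians from -0.88 to -0.12. Their summed level in the corpus went from 765.5 to 960.9 CPM at 3 months to 468.3 to 587.7 at 21 months. In the testis it was 83.60 to 96.98 and 80.77 to 100.7 CPM, with overlap, and 1 of 10 fibroblast markers was called lower. In the caput Pdgfra and Dcn were at 166 and 153 CPM and at 195 and 158 CPM at 3 and 21 months. Neither was called, while all 10 fibroblast markers had log2 fold changes below 0 there (-1.01 to -0.17, median -0.47). Of the 10, 2 were called lower. Smooth muscle markers were lower in 13 of 84 pairs and higher in 2. Their sum in the vas deferens was 13775 to 14208 CPM at 3 months and 14399 to 23354 at 21 months, higher in the older mice. Acta2 was at 2685 and 3983 CPM there, but 0 of 12 smooth muscle markers were called in either direction. In the same region 5 of 10 fibroblast markers were called lower and 1 higher, and 5 of 12 endothelium markers were called lower. In the cauda the smooth muscle sum was 5059 to 7785 CPM at 3 months (6482 to 7785 without the third library) and 3456 to 4930 CPM at 21 months.

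Other cell types also differed, beside 1.3 to 8.48% of all genes called lower and 1.42 to 12.4% called higher in a region. Leukocyte markers were called higher in 24 of 67 pairs and lower in 2. Both lower calls were in the cauda, where without the third 3-month library 0 were lower and 4 higher. Adipocyte markers were lower in 35 of 69 and higher in 1, endothelium markers lower in 11 of 84, and genes of dividing cells lower in 29 of 70, with all 10 lower in the efferent ductules. Without that library the lower calls in the cauda went from 4 to 0 for endothelium and from 5 to 2 for dividing cells. All 10 skeletal muscle markers were lower in the cauda with and without it, with sums of 106.1 to 216.8 CPM at 3 months and 29.66 to 74.81 at 21 months. In the initial segment all 10 germ cell markers were lower, with sums of 46.50 to 151.1 and 13.44 to 34.33 CPM. In the efferent ductules the third 3-month library had a germ cell sum of 269.3 CPM against 50.85 to 59.27.

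Over the means of the 14 groups, the members fell into profiles that were more or less alike, described by Pearson's r of log2(mean CPM + 1) with no test, since the groups share mice and the testis is low for most members. Lox and Fbn1 were the closest pair of members (r = 0.98), and Eln was closest to Loxl2 (r = 0.93). Loxl3 and Mfap5 were the least alike (r = -0.13). Among 19656 genes compared, those most like Eln were Col4a2 (r = 0.95), Fndc1, Col1a1, Adamts10 and E030026E10Rik. Those most like Lox were Col5a2 (r = 0.99), Gm43921, Fstl1, Col3a1 and Fbn1. The closest gene to Fbn1 was Gm43921 (r = 0.99), to Emilin1 Adgra2 (r = 0.99), to Loxl2 Igsf10 (r = 0.98), to Loxl3 Tubb5 (r = 0.98), to Mfap5 Mmp19 (r = 0.96), to Loxl1 Htra3 (r = 0.93), to Mfap4 Igsf10 (r = 0.92) and to Fbln5 Col4a3 (r = 0.92).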

How the data were processed

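RNA was measured in 56 libraries of 7 regions and 2 ages, which their labels place by region, age and replicate number. The authors deposited raw read counts for each Ensembl gene, which are whole numbers. Per the study's methods and the submitters' processing notes, stranded total RNA libraries were read as pairs, trimmed with cutadapt, aligned with HISAT2 to GRCm38 (mm10) and counted with HTSeq. Versions, annotation release and strand setting are not given in the sources used here. Reads counted without strand would mix a gene with an antisense partner. Beside 42507, 7025 and 71140 reads for Eln, Loxl2 and Fbn1 over all libraries, their antisense genes had 210, 66 and 159.

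Symbols, positions and union exon lengths came from GENCODE M21, which named 53274 of 53379 genes. Age was tested in each region with edgeR 4.0.16 in R 4.3.3 (quasi-likelihood F-test, TMM, genes with at least 10 counts in total), over all genes, with Benjamini-Hochberg adjustment. Every adjusted p in the text is from such a fit. Regions were compared within each age, and region by age in one fit of all 56 libraries. CPM use one scaling over all libraries, so a fold within a region can differ slightly from the ratio of printed means. The likeness of profiles was computed among genes with a mean of at least 1 CPM. Scripts were tested on simulated data. Alternatives were DESeq2 1.42.0, its size factors, library size only, other filters, the replicate number as a block, one fit of all libraries, an adjusted p, no fold threshold, no Gm42418 and leaving out libraries.

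The 10 genes and the other lists were chosen with earlier results of these data known. Named genes were the members, from each pathway list the 2 genes called in the most regions in each direction with a mean of at least 1 CPM, the first 2 of each marker list, and the 5 genes most like Eln and Lox and the 3 most like each other member. One gene that this rule names is not reported here. Col2a1, Thy1 and the fits without the cauda libraries that stand apart and those of neighbouring regions with a block were chosen after their values were seen. Per the study's methods the 4 libraries of a group came from separate mice.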

Additional observations from a re-analysis of the deposited data

Results flagged for a closer look

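In 140 groups of 4 libraries (10 members in 14 groups), 17 had a library far from the other 3, with a gap to its nearest neighbour that took more of the group's range than Dixon's 95% critical value, where chance gives about 1 group in 20, or 7. Of these, 7 were the third 3-month cauda library, at 153 CPM for Eln, 75.7 for Lox, 22.4 for Loxl2, 13.2 for Loxl3, 51.8 for Emilin1, 99.3 for Mfap4 and 37.4 for Mfap5, each the highest of its group. That library also held the leukocyte, collagen and adipocyte sums given in the report, and their part in its values was not tested.

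The other 10 were single values. Loxl1 was high in the second 3-month library of the efferent ductules (35.3 CPM) and the third of the vas deferens (22.5 CPM), and low in the second 21-month cauda library (1.77 CPM). Emilin1 was high in the third 3-month library of the efferent ductules (37.5 CPM) and low in the fourth of the corpus (13.4 CPM). Fbn1 was high in the third 3-month corpus library (130 CPM) and Fbln5 in the second 21-month library of the efferent ductules (24.2 CPM). Mfap5 was low in the second 3-month caput library (2.14 CPM), the one with the most Gm42418. In the testis at 21 months Eln was low in the fourth library (1.82 CPM) and Loxl3 in the third (0.981 CPM).

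The age effect differed between the 7 regions for Mfap4 (adjusted p = 6.11e-05), Loxl1 (0.00233), Fbn1 (0.00687) and Eln (0.0468), by edgeR's test of the region by age terms in 56 libraries. With one replicate number left out in turn, Mfap4 passed in 4 of 4 fits, Loxl1 and Fbn1 in 3 and Eln in 0, and Eln also missed without the cauda libraries that stand apart (0.0742) and with library size only (0.165).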

How the results depend on the processing

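No member was called higher in any region under any alternative, and of the 7 counts of members lower at 21 months those of the initial segment, corpus and vas deferens stayed within 1.5 times under each alternative. With no fold threshold 5 members were lower in the testis and 7 in the efferent ductules, beside 5.05% and 12.3% of all genes. With library size only 7 were lower in the efferent ductules (19.2% of all genes) and 5 in the caput (5.09%), where this scaling moved the median of all genes by -0.33 and 0.20 (by -0.16 in the corpus). The members' medians in the efferent ductules, caput and corpus were then -0.73, -0.84 and -1.07, below the medians of all genes at -0.38, 0.19 and -0.17. At an adjusted p under 0.05 the cauda count was 1. The cause of these changes was not tested. DESeq2's Wald test gave no p for Mfap4 in the cauda.

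Leaving out one library gave 3 to 4 members lower in the testis, 4 in the efferent ductules, 6 to 8 in the initial segment, 6 to 9 in the caput, 7 to 9 in the corpus, 8 to 10 in the cauda and 5 to 6 in the vas deferens. Leaving out one replicate number from all groups gave 41 to 49 pairs lower in all and 1 to 3 members whose age effect differed between regions.

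With the replicate number as a block, 43 pairs were lower and 6 members had an age effect that differed between regions, Loxl2 and Fbln5 being added. Fbln5 in the initial segment and Emilin1 in the caput were no longer called, and the block changed no other member's call. Between ages the block joins libraries of different mice, so it cannot pair samples of 1 mouse. All correlations of deviations were above 0.1 in 0 of 7 regions between ages. Between regions this held for 1 of 21 pairs at 3 months (corpus and cauda, 0.12 to 0.22) and 0 of 21 at 21 months. With the block in the fits of regions, Loxl3 from corpus to cauda was lost and Loxl2 and Mfap4 from efferent ductules to initial segment were gained at 3 months.

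Directions reversed for 3 pairs near 0. Loxl3 in the testis was -0.00159 with library size only and -0.11 to 0.21 leaving out single libraries. Fbln5 in the testis was -0.00853 with library size only and -0.0879 to 0.10 leaving out single libraries. Emilin1 in the efferent ductules was -0.27 with library size only, -0.0187 with all 56 libraries in one fit and -0.00168 to 0.16 leaving out single libraries.

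Precision rests on 4 libraries per group, and Lox in the testis on 5 to 32 reads per library.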

Other observations

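Several pathway genes picked by the same rule moved in few regions. Mmp2, a gelatinase that also cuts elastin, was lower in the corpus, cauda and vas deferens, in the last from 53.0 to 22.9 CPM (adjusted p = 0.000569 by edgeR's quasi-likelihood test). Ctsk, the collagen-cutting cathepsin K, was lower in the initial segment, corpus and cauda, and Hmcn1, which encodes a large fibulin, in the caput, corpus and cauda. Without the third 3-month cauda library Ctsk and Hmcn1 were no longer called in the cauda, while Mmp2 was. Higher values were called in single regions, for Papln and Emilin2 in the efferent ductules (59.7 to 90.3 CPM and 5.43 to 8.54 CPM) and for Adamtsl5 and Ccn2 in the vas deferens (8.04 to 13.0 CPM and 19.0 to 29.8 CPM). Of these 4, Adamtsl5, which binds fibrillin, had an adjusted p under 0.05 (0.0415). Tgfb3 was lower in the cauda, from 28.1 to 17.2 CPM (adjusted p = 0.141).

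Fbn2, the fibrillin of early development, was as high in the adult testis (109 CPM at 3 months and 102 CPM at 21 months) as in the vas deferens (92.7 and 81.9 CPM), and it was called in neither. In the 5 regions between them it was at 3.33 to 30.7 CPM at 3 months and was called lower in each.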
